A study of Mus musculus with 8 samples.

Results

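Scavenger receptors are membrane proteins with which macrophages bind and take up modified lipoproteins, fatty acids, dying cells and other debris. The 7 genes described here are the scavenger receptors Cd36, Scarb1, Msr1, Marco, Olr1 and Stab1, and Cd5l, a secreted macrophage protein. They were picked by gene symbol, 7 of the 46983 genes of the deposited table, and each symbol occurred in it. The choice was made with the authors' deposited comparison of these libraries already known, so the values of the 7 genes between the named groups are a description and support nothing by themselves.

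RNA was sequenced from microglia, the macrophages that reside in brain tissue, taken from the corpus callosum, a large white matter tract, of mice on a mixed FvB and C57BL6 background. All mice carried Cx3cr1-CreER, a tamoxifen-inducible Cre recombinase driven by the fractalkine receptor gene, which is active in microglia and also in macrophages of the brain's borders and in monocytes. Libraries named Qk-KO stand for mice whose Qk alleles are both floxed, and those named WT for mice with 1 floxed and 1 unmodified allele. All mice received tamoxifen at 8 weeks of age and then a diet with 0.2% cuprizone, a copper chelator that kills oligodendrocytes, for 6 weeks. There were 4 libraries of each name. The labels do not say whether they came from separate animals, so a p-value reflects the spread among libraries, which may be technical. For 4 of the 8 libraries, named Qk-KO 1 and 3 and named WT 2 and 3, the labelled genotype contradicts the name. Libraries are called by their names, and every member is also given by the labelled genotype (the genotype field).

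Qk, which encodes the RNA-binding protein quaking, had regularized log2 values (the scale of the deposited library values) of 15.59, 15.40, 15.69 and 15.29 in named Qk-KO 1 to 4, against 15.50, 15.38, 15.41 and 15.37 in named WT 1 to 4. The groups overlapped, with a difference of 0.079 (limma, adjusted p = 0.819), and by labelled genotype it was -0.16 (adjusted p = 0.9995). The sources used here do not say which part of Qk is deleted, so its gene-wide level checks neither label. Rough totals were 43.9 to 58.5 M reads in named Qk-KO and 59.7 to 69.7 M in named WT libraries, without overlap, and the part of depth in the differences given here was not tested. The 10 microglia markers examined were all expressed, with a summed level of 13712 to 16106 CPM (depth-scaled reads relative to their sum over all genes) in named Qk-KO and 16926 to 18783 CPM in named WT libraries. The 5 erythroid markers summed to 120 to 285 CPM in named Qk-KO and 226 to 411 CPM in named WT libraries, and none was called. The haemoglobin genes Hba-a1 and Hba-a2 and the haem synthesis gene Alas2 differed by -0.67, -0.67 and -0.65. In such bulk libraries fewer cells of a type and less RNA per cell cannot be told apart.

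The receptors fall into structural classes. Cd36 and Scarb1 are class B receptors, which cross the membrane at both ends. Msr1 and Marco are class A receptors, trimers with a collagen-like stalk and a cysteine-rich SRCR domain at the tip, and Cd5l consists of SRCR domains alone. Olr1 is a C-type lectin-like receptor and Stab1 a large receptor with repeated fasciclin and EGF-like domains. In demyelinating tissue microglia take up myelin debris, which is rich in cholesterol and fatty acids, and several of these receptors are known for handling such lipids.

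The members differed widely in level. Per kilobase of annotated exon, Stab1 was the highest, with 42.3 to 67.5 CPM per kb over the 8 libraries, above 94.1% of the genes with a mean of at least 1 CPM. Next in order of their means came Olr1, at 2.10 to 15.3 CPM per kb, and Cd36, at 4.09 to 7.94. Scarb1, at 4.49 to 6.87, and Msr1, at 4.02 to 5.94, followed. Their ranges over the 8 libraries overlapped, so that order is not resolved. Within named WT libraries Cd36, at 6.46 to 7.94, lay above Msr1, at 4.05 to 4.71. In named Qk-KO 1, 2 and 3 Cd36 lay below Msr1, at 5.38, 5.12 and 4.09 against 5.94, 5.58 and 5.58. In named Qk-KO 4 Cd36 lay above, at 4.95 against 4.02. The order of Cd36, Scarb1 and Msr1 depends on the length used. Msr1 has 6.34 kb of annotated exon, but the transcript searched below for motifs has 1424 bases. For Scarb1 these lengths are 8.5 kb and 2521 bases, and for Cd36 3.59 kb and 3399 bases. Without scaling by length, Msr1 lay above Cd36 in all 8 libraries, with a mean of 1758 depth-scaled reads against 1243. Cd5l was lower, at 0.605 to 1.64 CPM per kb, below every library's value of the 4 genes before it. Marco was barely detected, at 0.0293 to 0.0445 CPM per kb and a mean of 4.26 depth-scaled reads per library, against 117.9 for Cd5l and 30120 for Stab1. Counting error and shrinkage therefore weigh most on Marco.

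**Figure D1:**
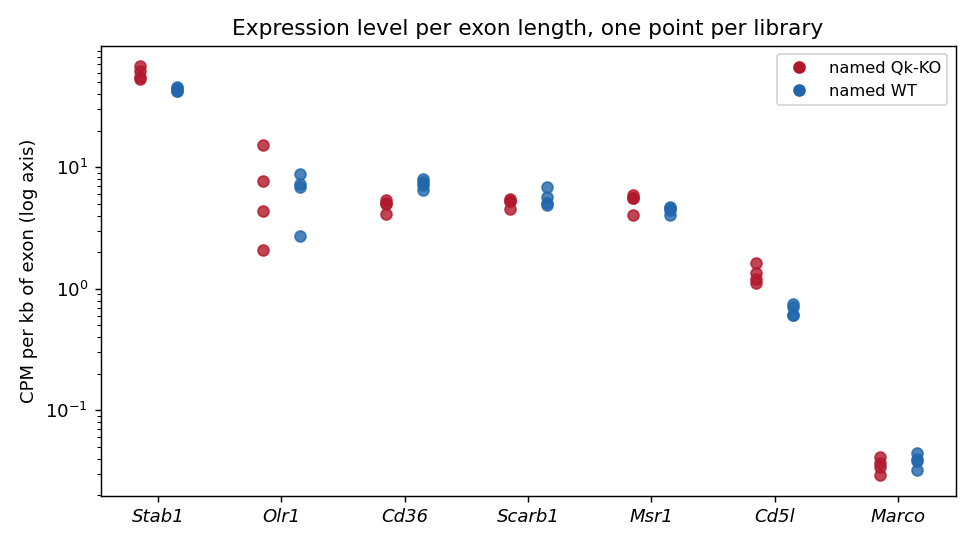
Level of each gene in CPM per kilobase of exon on a log axis, 1 point per library, named Qk-KO in red and named WT in blue. Stab1 sits between 42.3 and 67.5 CPM per kb, the 4 genes in the middle overlap, and Marco lies below 0.0445.

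Of the 7 genes, 3 were called at an adjusted p under 0.05 in the authors' deposited table, Cd5l and Stab1 higher and Cd36 lower in the libraries named Qk-KO, where 1.22% of the 14150 genes with an adjusted p in that table were called (0.551% higher and 0.671% lower). Msr1, Scarb1 and Olr1 were not called there, and Marco has no adjusted p. The same 3 genes had no overlap between the named groups, against 5.73% of the 22546 genes tested here. The fit of limma across all genes called none of the 7, with an adjusted p of 0.255 for each of the 3, and called 0.00444% of all genes (1 gene, which is not a member). At an unadjusted p under 0.05 limma had 1863 of the 22546 genes, Cd36, Stab1 and Cd5l among them. These shares are printed for scale only, since this comparison was known when the genes were picked. They apply as a scale to each count of calls in the gene lists below too.

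**Figure D2:**
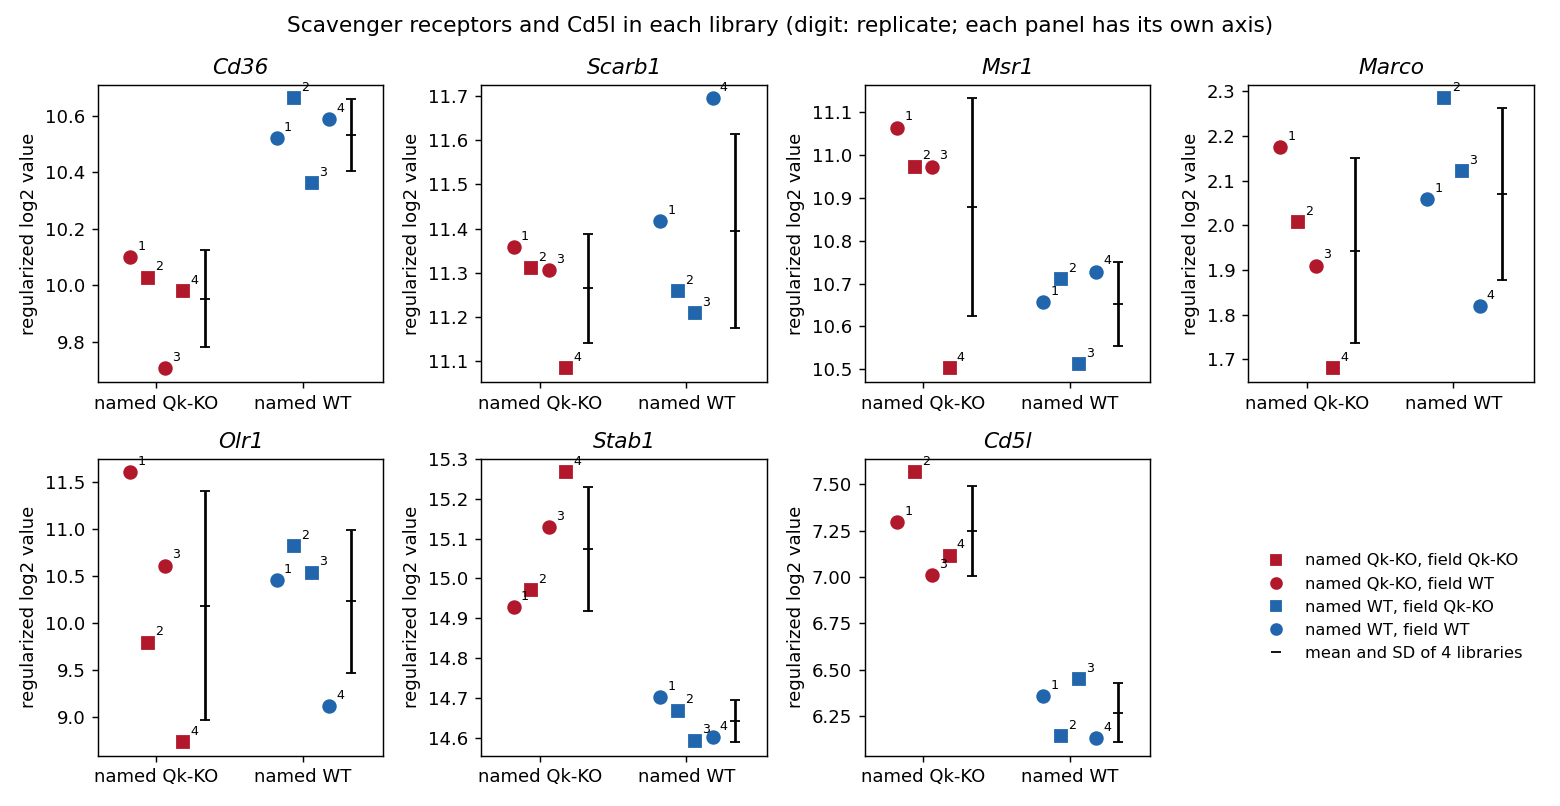
Regularized log2 value of each gene in each library, named Qk-KO left of named WT, with squares for libraries whose genotype field says Qk-KO, circles for those whose field says WT, and black bars for the mean and SD of 4 libraries. The groups do not overlap for Cd36, Stab1 and Cd5l, and the Olr1 values run from 8.73 to 11.60.

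Promoter sequences are shown for the 3 genes called in the authors' deposited table, with the core of the PU.1 motif, GAGGAA on either strand, in capitals. They cover 250 bases before to 50 after the annotated start and were taken from RefSeq on GRCm38.p6, at chr5:17835847-17836146 on the minus strand for Cd36, chr14:31168592-31168891 on the minus strand for Stab1 and chr3:87357631-87357930 on the plus strand for Cd5l.
Cd36: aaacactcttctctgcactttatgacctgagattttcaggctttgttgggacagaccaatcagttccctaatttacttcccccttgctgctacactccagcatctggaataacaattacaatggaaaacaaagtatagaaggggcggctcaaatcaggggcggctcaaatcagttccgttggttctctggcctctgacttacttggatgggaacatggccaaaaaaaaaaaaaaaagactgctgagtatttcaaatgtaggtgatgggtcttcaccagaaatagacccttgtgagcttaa
Stab1: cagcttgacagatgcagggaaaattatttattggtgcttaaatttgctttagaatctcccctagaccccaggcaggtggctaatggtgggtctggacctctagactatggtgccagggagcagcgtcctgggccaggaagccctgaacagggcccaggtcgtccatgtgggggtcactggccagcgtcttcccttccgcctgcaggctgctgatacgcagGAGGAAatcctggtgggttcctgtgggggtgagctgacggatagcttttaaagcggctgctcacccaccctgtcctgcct
Cd5l: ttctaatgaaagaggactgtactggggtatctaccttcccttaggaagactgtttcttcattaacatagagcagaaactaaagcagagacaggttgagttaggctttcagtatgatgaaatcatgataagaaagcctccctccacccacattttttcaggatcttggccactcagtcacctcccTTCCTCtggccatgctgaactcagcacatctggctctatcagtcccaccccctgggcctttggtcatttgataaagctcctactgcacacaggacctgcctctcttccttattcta
The motif occurred once each in the promoters of Stab1 and Cd5l, and once each in those of Marco and Olr1, but not in the window of Cd36. That window lies inside the Cd36 gene as annotated in GENCODE, whose upstream end is at chr5:17888801. Sequence around that end was not searched, so other Cd36 promoters may hold the motif. Msr1 and Scarb1 had no entry. It occurred in 28.3% of all 32851 RefSeq promoters of that length. The spaced direct repeats of liver X receptors and of peroxisome proliferator-activated receptors were searched on both strands without mismatches. They occurred in 0.0152% and 0.0396% of all promoters and in none of the windows searched for the 5 members with an entry.

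Quaking binds RNA at ACUAAC or ACUAAU, best with a second half-site, UAAC or UAAU, close by. In the mature transcripts of GENCODE M21, written as DNA, ACTAAC or ACTAAT occurred on the sense strand in 41.8% of 21901 protein-coding genes (1 transcript per gene), and with TAAC or TAAT after 1 to 20 further bases in 9.28%. Of the 7 genes, Cd36 held 2 such sites in its 3399 bases, both in the 3′ UTR, and Msr1 held 1 in the 1424 bases of the transcript searched, in the coding sequence. The transcripts searched of Stab1, with 7999 bases, Cd5l, Scarb1, Olr1 and Marco held none. The transcripts searched of Scarb1, Msr1, Stab1 and Cd36 have 2521, 1424, 7999 and 3399 bases. Their genes have 8.5, 6.34, 10.3 and 3.59 kb of annotated exon, so part of their exons was not searched. Among transcripts of similar length, 78.5% held at least 1 site for Stab1 and 33.7% for Cd5l. The share was 50.1% for Cd36 and 24.9% for Msr1, and 3.08% of those near Msr1 also held the second half-site. The sites are shown with the motif in capitals. Those of Cd36 lie at chr5:17782541-17782566 and chr5:17782003-17782028 and that of Msr1, which has the second half-site, at chr8:39631283-39631309, all on the minus strand of GRCm38.
Cd36 first site: ctcagctgcaACTAATaacaaccttg
Cd36 second site: aggtgagacaACTAACtctcttgtct
Msr1 site: ACTAATacctgttgttggaatagTAAC
A match is a description of the letters only, introns were not searched, and no binding was measured here.

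Cd36 takes up oxidized lipoproteins, long-chain fatty acids and apoptotic cells. Its log2 values were 10.10, 10.03, 9.71 and 9.98 in named Qk-KO 1 to 4, against 10.52, 10.66, 10.36 and 10.59 in named WT 1 to 4. Every named Qk-KO library lay below every named WT library, with a gap of 0.26 between the nearest values and named Qk-KO 3 the lowest of the 8. Cd36 was 1.51-fold lower in named Qk-KO in the authors' deposited table (a log2 ratio of -0.59 with an SE of 0.11, adjusted p = 0.000226), and the difference fitted here was -0.58 with a 95% interval of -0.80 to -0.36. Within the libraries whose genotype field says Qk-KO the difference by name was -0.51, and within those whose field says WT it was -0.65 (2 against 2 libraries each). The gene (ENSMUSG00000002944.15) spans chr5:17781690-17888801 on the minus strand of GRCm38 and overlaps no other gene annotated there. Both of its quaking motifs lie in the 3′ UTR.

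Cd36 is also expressed by platelets, endothelial cells and monocytes. The 7 platelet markers summed to 47.9 to 55.0 CPM in named Qk-KO and 55.7 to 66.1 CPM in named WT libraries, without overlap, and most of that was Itgb3, which other cells express too, at a mean of 51.5 CPM. The other 6 were lower, with Gp9 at 2.19, Treml1 at 2.07, Itga2b at 0.563, Gp1bb at 0.338, Ppbp at 0.0545 and Gp6 at 0.0029 CPM, against 21.9 CPM for Cd36. Itgb3, Gp9 and Treml1 differed by -0.26, -0.19 and 0.29, and 0 of these 3, the only ones with an adjusted p, were called. The 10 endothelial markers summed to 239 to 276 CPM in named Qk-KO and 221 to 311 CPM in named WT libraries, with 9 of 10 differences negative, none called, and a median difference of -0.56. Among them the junction proteins Cldn5 and Cdh5 and the receptor Tek differed by -0.73, -0.63 and -0.70. Within the libraries whose genotype field says WT, these 3 differed by name by -1.44, -1.29 and -1.43. Within those whose field says Qk-KO, they differed by -0.011, 0.025 and 0.023 (2 against 2 libraries each). The 8 monocyte markers summed to 335 to 734 CPM in named Qk-KO and 594 to 740 CPM in named WT libraries, with 7 of 8 differences negative and none called. Ace, Ly6c2 and Chil3 differed by -0.46, -0.19 and -0.14, against log2 ratios of -0.45, -0.41 and -0.41 in the authors' deposited table. All 10 endothelial and 8 monocyte markers were above 0, and the part of platelets, endothelial cells and monocytes in the Cd36 values was not tested. Endothelial cells are also known to express Scarb1 and Stab1, and these marker values stand beside those genes too.

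Scarb1, the other class B receptor, binds high-density lipoprotein and lets cholesteryl esters into the cell. Its log2 values were 11.36, 11.31, 11.31 and 11.08 in named Qk-KO 1 to 4, against 11.42, 11.26, 11.21 and 11.70 in named WT 1 to 4. The groups overlapped, with named Qk-KO 4 the lowest and named WT 4 the highest library. The difference by name was -0.13 and its limma 95% interval was -0.38 to 0.11 (adjusted p = 0.756). It was -0.36 when only the 4 libraries whose name and genotype field concur were used and -0.030 without named WT 4. The gene lies at chr5:125277087-125341094 on the minus strand of GRCm38 and contains Gm42633, an unverified transcript on the same strand, so reads there are uncertain.

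Msr1, the class A receptor for modified lipoproteins, had log2 values of 11.06, 10.97, 10.97 and 10.50 in named Qk-KO 1 to 4, against 10.66, 10.71, 10.51 and 10.73 in named WT 1 to 4. Named Qk-KO 1, 2 and 3 lay above all named WT libraries, and named Qk-KO 4 was the lowest of the 8. The difference by name was 0.23 and its limma 95% interval was -0.038 to 0.49 (adjusted p = 0.660), and without named Qk-KO 4 it was 0.35. The gene lies at chr8:39581685-39642673 on the minus strand of GRCm38.

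Marco, the class A receptor for bacteria and particles, is typical of macrophages outside the brain. Its log2 values of 2.17, 2.01, 1.91 and 1.68 in named Qk-KO 1 to 4 and 2.06, 2.28, 2.12 and 1.82 in named WT 1 to 4 rest on a few reads each and are shrunken together. The groups overlapped, replicate 4 being the lowest in both, and no difference was detectable at this depth (difference -0.13, 95% interval -0.45 to 0.19). The gene lies at chr1:120474538-120505024 on the minus strand of GRCm38.

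Olr1, the receptor LOX-1 for oxidized lipoproteins, varied more between libraries of one name than any other of the 7 genes. Its log2 values were 11.60, 9.79, 10.61 and 8.73 in named Qk-KO 1 to 4, against 10.46, 10.81, 10.54 and 9.12 in named WT 1 to 4. Replicate 4 was the lowest library in both named groups and named Qk-KO 1 the highest, and the groups overlapped fully. The SD within named groups was 1.02, above that of 98.4% of the genes with at least 1 CPM, whereas those of Cd36, Stab1 and Cd5l, at 0.15, 0.12 and 0.21, exceeded 53.7%, 38.9% and 67.7% of them. The difference by name was -0.047 with a 95% interval of -1.60 to 1.51, an interval too wide to resolve even a large difference of Olr1. In the authors' deposited table its log2 ratio was 0.15, of the opposite sign, and not called. The fitted difference by name was 1.32 within the libraries whose genotype field says WT and -1.41 within those whose field says Qk-KO. Each rests on 2 against 2 libraries, and the test of that change (limma interaction, -2.73, SE 0.87) had an adjusted p of 0.401. Named WT 4, at 9.12, falls among the former and named Qk-KO 4, at 8.73, among the latter, and their part was not tested. The gene lies at chr6:129485244-129507165 on the minus strand of GRCm38.

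Stab1, or stabilin-1, takes up acetylated lipoproteins, phosphatidylserine on dying cells and the matrix protein Sparc, which it routes to lysosomes. Its log2 values were 14.93, 14.97, 15.13 and 15.27 in named Qk-KO 1 to 4, against 14.70, 14.67, 14.59 and 14.60 in named WT 1 to 4. The named groups did not overlap, with a gap of 0.23, and the SD was 0.16 among named Qk-KO and 0.053 among named WT libraries. Stab1 was 1.36-fold higher in named Qk-KO in the authors' deposited table (a log2 ratio of 0.44 with an SE of 0.089, adjusted p = 0.000397), and the difference fitted here was 0.43 with a 95% interval of 0.26 to 0.60. By name it was 0.49 within the libraries whose genotype field says Qk-KO and 0.38 within those whose field says WT. The gene (ENSMUSG00000042286.13) lies at chr14:31139013-31168641 on the minus strand of GRCm38, and its end overlaps the end of Nt5dc2 on the plus strand, so a small part of its reads is uncertain without strand information.

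Sparc was the one ligand of the 12 listed for these receptors that was called. It was 1.46-fold lower in named Qk-KO in the authors' deposited table (a log2 ratio of -0.55 with an SE of 0.16, adjusted p = 0.0441), at log2 values of 15.27 ± 0.28 in named Qk-KO and 15.82 ± 0.24 in named WT libraries (SD, n = 4 each). Its groups did not overlap, and limma did not call it (adjusted p = 0.443). Astrocytes and endothelial cells also express Sparc, and 8 of 8 astrocyte markers had negative differences, with summed levels of 85.8 to 506 CPM in named Qk-KO and 209 to 549 CPM in named WT libraries, and their part was not tested. Gfap, Aqp4 and Atp1b2 differed by -1.13, -1.12 and -1.001, against log2 ratios of -0.62, -0.49 and -0.51 in the authors' deposited table, and none was called. Within the libraries whose genotype field says WT, these 3 differed by name by -2.50, -2.42 and -1.89. Within those whose field says Qk-KO, they differed by 0.23, 0.19 and -0.11 (2 against 2 libraries each). The differences of Apoe and Thbs1, a lipoprotein ligand and the thrombospondin bound by Cd36, were 0.25 and 0.10, neither called. Of the 6 partners listed for moving Stab1 inside the cell, 0 of the 5 with an adjusted p were called, and the adaptors Gga1, Gga2 and Gga3 differed by -0.047, 0.11 and -0.10.

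Cd5l, also called AIM, is secreted by tissue macrophages, circulates bound to IgM and, in fat cells, enters through Cd36 and inhibits fatty acid synthase. Its log2 values were 7.30, 7.57, 7.01 and 7.12 in named Qk-KO 1 to 4, against 6.36, 6.14, 6.45 and 6.13 in named WT 1 to 4. The gap between the named groups, 0.56, was the widest of the 7 genes. In depth-scaled reads these values are at least 129 in every named Qk-KO library and at most 87.5 in every named WT library. Cd5l was 2.17-fold higher in named Qk-KO in the authors' deposited table (a log2 ratio of 1.12 with an SE of 0.21, adjusted p = 8.71e-05), and the difference fitted here, on values shrunken for low counts, was 0.98 with a 95% interval of 0.61 to 1.35. By name it was 1.04 within the libraries whose genotype field says Qk-KO and 0.91 within those whose field says WT. The gene (ENSMUSG00000015854.7) lies at chr3:87357881-87371073 on the plus strand of GRCm38 and overlaps no other annotated gene.

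Outside the brain Cd5l, Marco and Stab1 mark resident macrophages such as those of liver and spleen, and Stab1 is also found in border-associated macrophages. The 7 markers of tissue macrophages outside the brain summed to 147 to 208 CPM in named Qk-KO and 151 to 208 CPM in named WT libraries, nearly all of it Hmox1 and Slc40a1, which differed by -0.046 and -0.089, while Clec4f, C6 and Vsig4 averaged 0.0035, 0.0369 and 0.0418 CPM. Of the 2 with an adjusted p none was called, with 5 of 6 differences negative. The 10 border-associated macrophage markers, all above 0, summed to 239 to 270 CPM in named Qk-KO and 231 to 288 CPM in named WT libraries, and 9 of 10 differences were negative. The exception was Ms4a7, a membrane protein of macrophages, which was 1.76-fold higher in named Qk-KO in the authors' deposited table (a log2 ratio of 0.82, adjusted p = 2.72e-08). Mrc1 and Cd163, which define such cells, differed by -0.089 and -0.35.

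**Figure D3:**
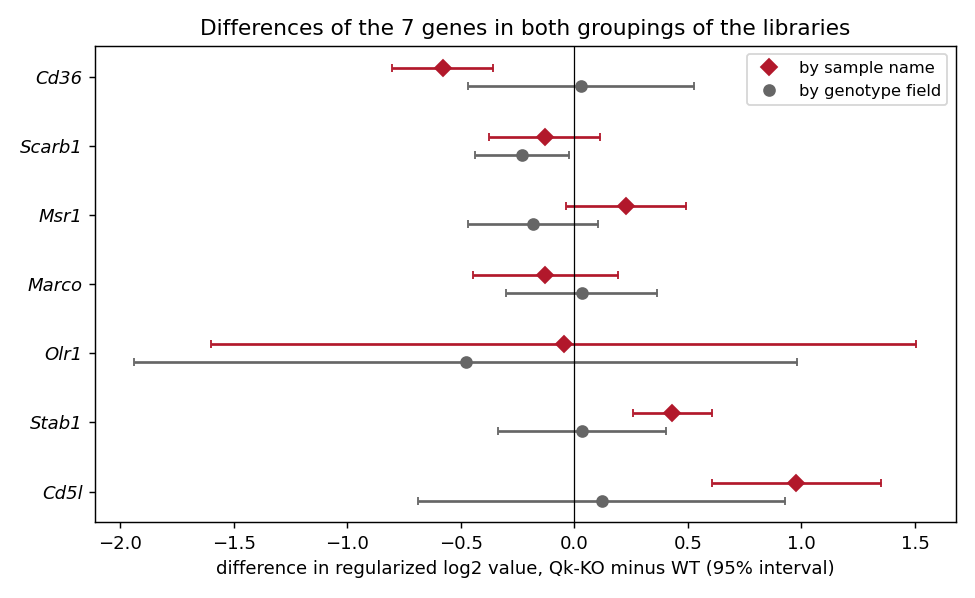
Difference of each gene in regularized log2 value, Qk-KO minus WT, with its 95% interval from limma, by sample name (red diamonds) and by genotype field (grey circles), 8 libraries each. By name the intervals of Cd36, Stab1 and Cd5l lie off 0; by genotype field only that of Scarb1 does, at -0.44 to -0.023.

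The grouping by genotype field was not used to pick the genes. Each field group takes as many libraries named Qk-KO as named WT. A gene without overlap by name, such as Cd36, Stab1 or Cd5l, therefore cannot separate the field groups. Its difference by name also widens the spread within them and leaves little room for a small p. With both groupings in the limma fit the SE of the Cd36 difference by field was 0.10, against 0.22 here. By genotype field alone limma called 0 of the 7 genes and 0.0% of all genes, with 602 of 22546 genes at an unadjusted p under 0.05. For Cd5l the mean was 6.82 ± 0.64 in field Qk-KO and 6.70 ± 0.55 in field WT libraries (SD, n = 4 each; exact two-sided permutation p = 0.714, where the smallest possible over 70 assignments is 0.0286). Stab1 differed by 0.035 with a 95% interval of -0.34 to 0.41 (exact permutation p = 0.83), and Cd36 by 0.029 with an interval of -0.47 to 0.53 (exact permutation p = 0.886). Each interval, that of Cd5l reaching 0.93, ends short of the difference by name, and a p that misses the threshold does not show that the groups were alike. Scarb1 was 11.21 ± 0.10 in field Qk-KO and 11.44 ± 0.17 in field WT libraries (SD, n = 4 each). Its difference of -0.23 had an exact permutation p of 0.0571 and a limma adjusted p of 0.9995. Msr1, Marco and Olr1 differed by -0.18, 0.032 and -0.48, with exact permutation p of 0.229, 0.857 and 0.457 over the 8 libraries. None of the 7 genes separated the field groups, which Cd36, Stab1 and Cd5l could not do. Over all genes tested the share was 1.85%, so low that 0 of 7 is no contrast.

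**Figure D4:**
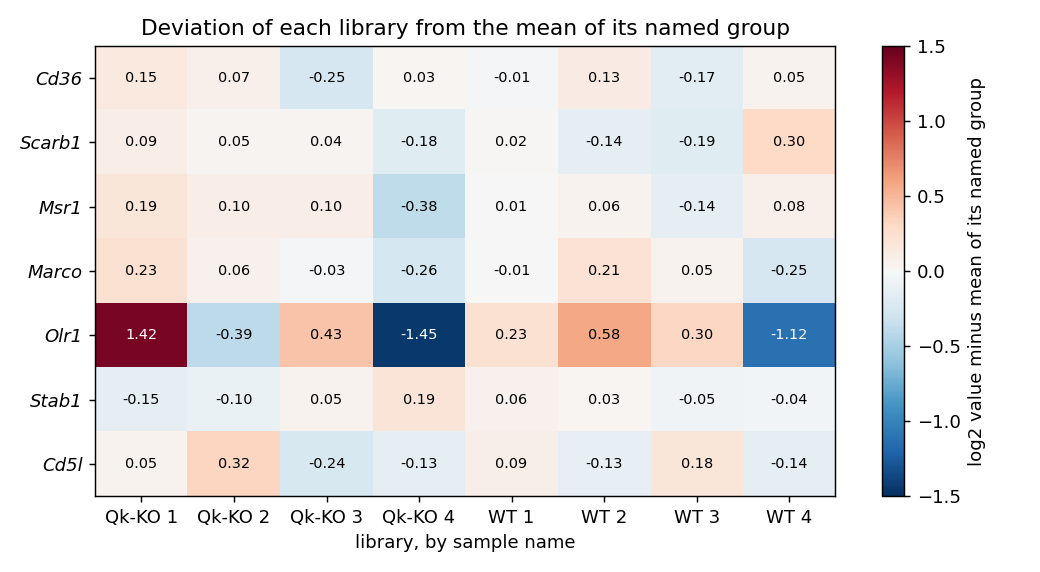
Deviation of each library from the mean of its named group, in regularized log2 value, for the 7 genes, with red above and blue below the mean. Olr1 ranges from -1.45 in named Qk-KO 4 to 1.42 in named Qk-KO 1, and the other 6 genes stay within 0.38 of their means.

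With the named group means removed, the 7 genes did not move as a set across the libraries. Marco and Olr1 deviated alike (Pearson r = 0.89 over 8 libraries), as did Msr1 and Scarb1 (0.66) and Msr1 and Olr1 (0.61). Stab1 deviated against Msr1 (-0.74), Marco (-0.58) and Cd5l (-0.56), although Stab1 and Cd5l were both higher in named Qk-KO. The Marco values rest on a mean of 4.26 depth-scaled reads per library, so counting error and shrinkage weigh on each r with Marco. Cd36 had no r beyond 0.27 in size with any other member. All points share the same libraries and the same scaling, and these r are a description with no test.

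By the same measure, over 13462 other genes with at least 1 CPM, the genes most like Cd36 were Fam89a (r = 0.99), Cops4 (0.99) and Pparg (0.96). Pparg encodes the nuclear receptor known to switch on Cd36 in macrophages, and its log2 values were 6.26 ± 0.32 in named Qk-KO and 5.85 ± 0.30 in named WT libraries (SD, n = 4 each), a difference of 0.41 that was not called, in the direction opposite to that of Cd36. The genes most like Stab1 were Arhgef15 (0.97), Mier1 (0.96) and Snx32 (0.96), and those most like Cd5l were Umad1 (0.99), Exoc5 (0.98) and Bicd2 (0.97). None of these 9 genes was called in the authors' deposited table. They were picked as the highest of 13462 r over only 8 libraries. In all, 48 genes had an r above 0.9 with Cd36, 32 with Stab1 and 33 with Cd5l, and no r was tested.

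**Figure D5:**
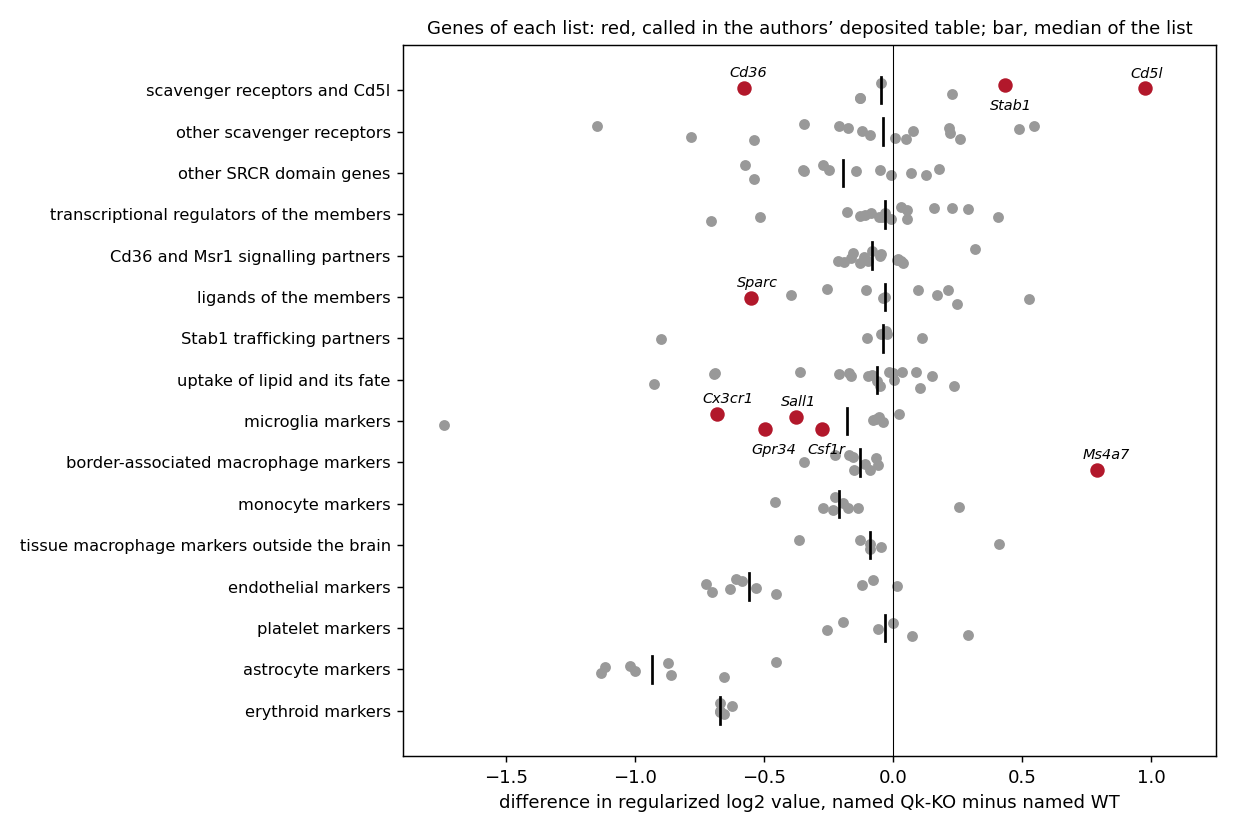
Difference in regularized log2 value, named Qk-KO minus named WT, of each tested gene of the lists, 1 point per gene, with red for genes called in the authors' deposited table and black bars for list medians. Outside the microglia markers, only Cd36, Stab1, Cd5l, Sparc and Ms4a7 are red.

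Other receptors and regulators of the pathway were mostly uncalled in the authors' deposited table, as were most genes, with 1.22% of 14150 called. At that share, 0 calls in a list of this size is no contrast to other genes. Of 17 other scavenger receptors, 0 of the 14 with an adjusted p were called, and the median difference of the 16 tested was -0.041, against -0.0044 over all genes tested. Cd14, a receptor for endotoxin, Scara3 and Megf10, an engulfment receptor, differed by 0.49, -1.15 and -0.78 here. In the authors' deposited table their log2 ratios were 0.50, -0.69 and -0.38, with adjusted p of 0.0940, 0.646 and 0.853. Of 15 other genes with SRCR domains, 0 of the 4 with an adjusted p were called, with a median difference of -0.20 over the 12 tested. Among these Loxl3, a lysyl oxidase, Lgals3bp and the haemoglobin receptor Cd163 differed by -0.35, -0.27 and -0.35. The 17 regulators known or proposed to control the 7 genes held 0 calls among the 16 with an adjusted p and a median difference of -0.031. Nr1h3 and Nr1h2, the liver X receptors that induce Cd5l in macrophages, differed by -0.11 and -0.053, Spi1, the macrophage factor PU.1, by -0.031, and Cebpb and Cebpa by 0.29 and -0.71 (log2 ratios of 0.30 and -0.26 in the authors' deposited table). Of 15 signalling partners of Cd36 and Msr1, 0 were called, with a median difference of -0.082. Tlr2, which pairs with Tlr6 and Cd36, differed by 0.32, the kinase Fyn by -0.22 and the tetraspanin Cd81 by -0.19. Among 19 genes for lipid uptake and its fate, 0 of the 17 with an adjusted p were called and the median difference was -0.064. Lrp8, Cav1 and Vldlr differed by -0.70, -0.93 and -0.69 here, against log2 ratios of -0.70, -0.69 and -0.36 in the authors' deposited table. Fasn, the enzyme that Cd5l inhibits, differed by -0.064. Of the 10 microglia markers, 4 were called, all lower in named Qk-KO, against 0.671% of the 14150 genes called lower. These markers too were listed with earlier results known. They were Cx3cr1 at -0.70, Gpr34 at -0.49, Sall1 at -0.39 and Csf1r at -0.28 on the log2 scale of the authors' deposited table. Limma, by sample name, called no gene of any of these lists.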

How the data were processed

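The 7 genes and all gene lists were chosen with earlier results of these data known. Per the submitters' processing notes, FastQC, HISAT2, StringTie and DESeq2 were used with build mm10. Versions and gene annotation: not given in the sources used here. Deposited by the authors was 1 log2 value per gene and library, which behaves as a regularized log2 value, shrunken towards the gene's mean at few reads. The mean signal deposited by the authors averages depth-scaled reads, and 1 CPM equals 56.8 of it. Per the file headers, the table also gives a log2 fold change, its standard error, a test statistic (a score) and the p-value, raw and adjusted. A positive fold change is higher in named Qk-KO, as checked against the library values.

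The table holds no counts per library, so limma 3.58.1 (R 4.3.3; trend, robust), tested on simulated data, was run on the log2 values with no pseudocount. It covered 22546 genes reaching 1 depth-scaled read in 4 or more libraries, all 7 members included, with Benjamini-Hochberg adjustment and calls at 0.05. Samples were grouped by name or by labelled genotype, also called the genotype field, and single values in the grouping by genotype field were tested with exact two-sided permutation tests (SciPy 1.17.1). Library totals were estimated from genes with reads in 1 library only. Coordinates and exon lengths came from GENCODE M21 (GRCm38). Genes were named by rule: members, list genes called, otherwise up to 3 per list with the largest authors' fold change at 1 CPM or more, and the 3 genes most like each called member. Apoe, Thbs1, Fasn, Spi1, Nr1h2, Nr1h3, Mrc1 and the other platelet and tissue macrophage markers were named for their role, after their values were seen.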

Additional observations from a re-analysis of the deposited data

Results flagged for a closer look

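Msr1 in named Qk-KO 4 stood apart from its group. Its log2 value was 10.50, and the nearest of the other named Qk-KO libraries was at 10.97. The gap took 0.838 of the group's range, above the limit of Dixon's test for 4 values at 95%. Chance passes that limit in a share of about 0.05 of groups. This group was picked from those of all 7 genes under both names, and no other passed. At that rate, a hit among so many groups does not set the library apart from chance. The Msr1 difference by name was 0.23 with all libraries and 0.35 without named Qk-KO 4.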

How the results depend on the processing

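By sample name, limma called 1 gene. It called 0 among genes with a mean of at least 1 CPM (1392 at an unadjusted p under 0.05), 3 with only the libraries whose labels concur, 0 to 7 with 1 library left out (0 without named Qk-KO 3, 2 without named Qk-KO 1, 3 without named Qk-KO 2 or named WT 2, and 7 without named Qk-KO 4), and 4 without named Qk-KO 4 and named WT 4 together, a setting chosen after seeing the data. By genotype field it called 0 genes, but 3 with the replicate block, where the difference rests on replicates 3 and 4 only. It called 3 with only the libraries whose labels concur, the same fit as by sample name, since both groupings are then the same. With 1 library left out it called 0 to 1 (1 without named Qk-KO 2, named WT 1 or named WT 4), and without both replicates 4 it called 1. No member was called in any of these settings, where the lowest adjusted p was 0.0725, of Stab1 without named Qk-KO 4. The authors' deposited table held 173 calls, 291 at an adjusted p under 0.1 and 66 under 0.01, and Cd36, Stab1 and Cd5l were among them each time.

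By sample name, with 1 library left out, the differences ranged from -0.64 to -0.50 for Cd36, 0.37 to 0.48 for Stab1, 0.87 to 1.06 for Cd5l, 0.16 to 0.35 for Msr1, -0.21 to -0.040 for Marco, -0.19 to -0.030 for Scarb1 and -0.52 to 0.44 for Olr1. Olr1, at -0.047 with all libraries, turned positive in 6 alternatives (0.029, 0.147 and 0.055 without named WT 1, 2 or 3, 0.084 and 0.44 without named Qk-KO 2 or 4, and 0.065 without both replicates 4), and Scarb1 in 1, at 0.030 without both replicates 4. Of 125 alternative values by sample name, 124 moved by less than the spread within groups, and that of Scarb1 moved to -0.36 with only the libraries whose labels concur. By genotype field, 17 values changed sign. With only the libraries whose labels concur, Cd36 was at -0.55, Marco at -0.10 and Msr1 at 0.045, and without both replicates 4 Cd5l was at -0.17 and Stab1 at -0.18. With 1 library left out the range was -0.14 to 0.15 for Cd36, -0.13 to 0.35 for Cd5l, -0.055 to 0.15 for Marco and -0.10 to 0.13 for Stab1. Using fewer libraries is part of each of these settings. With only the libraries whose labels concur, both groupings are the same, so those values are the differences by sample name. In the other settings the field groups hold unequal shares of each name, so the difference by name enters. Its part was not tested.

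Whether replicate numbers mark pairs was not settled. Deviations of same-numbered libraries correlated across genes at 0.046, 0.15, 0.27 and 0.46 for numbers 1 to 4, all positive. Named Qk-KO 1, however, correlated higher with named WT 3 (0.13), and named WT 2 with named Qk-KO 3 (0.17). With the replicate block the limma calls by sample name stayed at 1, and by genotype field there were 3. Both libraries numbered 1 share a genotype field, as do both numbered 2, so the blocked difference by field rests on numbers 3 and 4. By sample name 2924 genes then had an unadjusted p under 0.05, against 1863 without the block. The SE of the Cd36 difference by name fell from 0.098 to 0.067 (limma adjusted p = 0.0958, against 0.255). Depth limits Marco, with 4.26 depth-scaled reads per library, most.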

Other observations

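The genes whose deviations from the named group means were most like those of Olr1 were Il23a, a cytokine subunit (r = 0.9967 over 8 libraries), Nfkb2, a subunit of the inflammatory transcription factor NF-kB (0.9959), and Cxcl16, a chemokine that in its membrane form is itself a scavenger receptor (0.9951). They were looked up after the spread of Olr1 had been seen. In all, 590 of 13462 genes had an r above 0.9 with Olr1, against 48 for Cd36, 32 for Stab1 and 33 for Cd5l. Il23a had log2 values of 7.66, 5.80, 6.54 and 4.85 in named Qk-KO 1 to 4, against 6.32, 6.46, 6.29 and 4.89 in named WT 1 to 4. Replicate 4 was the lowest library of both named groups, and named Qk-KO 1 the highest of the 8, as for Olr1. Nfkb2 had log2 values of 13.13, 12.42, 12.77 and 12.13 in named Qk-KO 1 to 4, against 12.48, 12.61, 12.50 and 12.06 in named WT 1 to 4, with the same extremes within each named group. By sample name Il23a, Nfkb2 and Cxcl16 differed by 0.23, 0.20 and 0.22, none called.

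Over all genes with at least 1 CPM, named Qk-KO 4 and named WT 4 deviated alike from their groups (r = 0.46 across genes, which are not independent). The summed level of monocyte markers was lowest in named Qk-KO 4, at 335 CPM, but 732 CPM in named WT 4, and that of astrocyte markers was the highest of its named group in both, at 506 CPM in named Qk-KO 4 and 549 CPM in named WT 4. Their part in the Olr1 values was not tested.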
